A study of Mus musculus with 6 samples.

Results

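The endoplasmic reticulum (ER) genes described here are 37 genes of protein folding and ER-associated degradation (ERAD), out of 17469 genes in the deposited table. They were picked by gene symbol as stress sensors, chaperones, disulfide isomerases, degradation factors and translocon subunits, and each symbol was found once. RNA-seq was measured in 3 libraries of control (OCN-Cre;Ai9) and 3 libraries of TgAPPsweOCN;Ai9 cells, all from untreated mice aged 6 months. All 6 libraries carry OCN-Cre, which drives Cre recombinase from the osteocalcin promoter, and Ai9, an allele that makes cells tdTomato+ once Cre has acted. The TgAPPsweOCN;Ai9 libraries also carry human amyloid precursor protein with the Swedish mutation (APPswe), which the CAG promoter drives after the same Cre has removed a stop cassette. Marrow cells that attached in culture (BMSCs) were grown, and their tdTomato+ fraction was sorted as osteoblast (OB) progenitors. Whether a library holds the cells of a single mouse or of several is not given in the sources used here, so the spread between libraries of a genotype may be partly technical.

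The ER folds secreted and membrane proteins with the help of chaperones, and enzymes form their disulfide bonds. Sensors in its membrane, encoded by Atf6, Ern1 and Eif2ak3, respond when unfolded proteins build up, and together they start the unfolded protein response. Proteins that fail to fold are passed back to the cytosol and destroyed by the proteasome, which is called ERAD. Osteoblasts secrete much collagen and macrophages secrete many enzymes and cytokines, so both cell types rely on this machinery.

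The control libraries totalled 19340810 to 19801060 estimated counts each, and the APPswe+ libraries 21677461 to 22037840. The label of OB progenitors was checked against marker genes. The 15 myeloid markers had a median FPKM (fragment counts corrected for transcript length and library depth) of 547 to 573 in the control and 491 to 530 in the APPswe+ libraries. The 15 stromal and osteoblast markers had medians of 1.62 to 2.13 and 1.47 to 4.04, and Bglap, which encodes osteocalcin, stayed at or below 1.25 FPKM and was listed at 0 in a library. The summed FPKM of the 15 was 220 to 265 in the control and 172 to 252 in the APPswe+ libraries, so some lay far above these medians. Among all genes tested 32.5% rose and 31.5% fell between the genotypes by the test described below, 8.9% and 9.2% at least 2-fold. Of the 15 myeloid markers 6 rose and 6 fell, 4 and 4 of them at least 2-fold, from -2.38 for Mrc1 to 2.04 for Aif1 on the log2 scale. Of the 14 stromal markers tested 4 rose and 3 fell, and the stromal genes Dcn and Lum rose at least 2-fold, Lum from 0 to 0.03 FPKM in the control to 0.63 to 0.87 in the APPswe+ libraries. Scaled by library size only, 6 myeloid markers rose and 7 fell and 4 stromal markers rose and 5 fell, beside 22.1% raised and 45.9% lowered among all genes. Of 8 B and plasma cell markers, 6 stayed below 1 FPKM in every library, and the 2 tested, Cd79b and Sdc1, rose by 1.75 and 0.39 on the log2 scale, although the FPKM groups of Sdc1 overlapped and its call was lost by library size only (0.17, adjusted p = 0.215). The medians of the neutrophil markers were 1.73 to 6.87 and 0.83 to 4.66, and 1 of 6 tested, Camp, rose. The sorted cells therefore held myeloid markers at far higher levels than osteoblast markers, and they are called OB progenitors here only as the study names them. App, the mouse gene that human APPswe reads may partly match, had an FPKM of 281, 275 and 281 in the control and 325, 332 and 333 in the APPswe+ libraries. In bulk libraries fewer cells of a type and less RNA per cell cannot be told apart, and the part of these marker levels in the results below was not tested.

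Most of the ER genes were higher in APPswe+ OB progenitors. All 37 genes had enough counts for edgeR's quasi-likelihood test. At a false discovery rate of 0.05 (Benjamini-Hochberg), 32 rose and 1, Eif2ak3, fell. The background was large, since 32.5% of the 12701 genes tested rose and 31.5% fell. With a change of at least 2-fold as well, 7 ER genes rose, namely Herpud1, Derl3, Ero1l, Sel1l, Pdia6, Canx and P4hb, and 0 fell, beside 8.9% and 9.2% of all genes. Ern1, Xbp1, Edem2 and Os9 did not pass the test. The median log2 fold change of the 37 genes was 0.66, against -0.019 for all genes tested. The ER genes together took 0.706% to 0.733% of the counts of a control library and 0.997% to 1.10% of those of an APPswe+ library.

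These fold changes use TMM normalization, which scales libraries so that most genes centre near 0. With scaling by library size only, the median of all genes moved to -0.23 and that of the ER genes to 0.44. The distance between both medians was 0.68 under each scaling, and 36 of 37 ER genes lay above the median of all genes in both. A change of scaling moves all genes by nearly the same amount, so this distance could hardly differ and is no test of stability. By library size only, 29 ER genes rose and 3 fell (Eif2ak3, Edem2 and Os9), beside 22.1% and 45.9% of all genes, and 3 rose at least 2-fold, beside 6.66%. In the deposited FPKM, every APPswe+ library was above every control library for 29 ER genes, beside 24% of all genes. For 3 genes (Eif2ak3, Edem2 and Os9) every APPswe+ library was below, beside 48.3% of all genes, and the groups of Ern1, Xbp1, Edem3, Derl2 and Sec61b overlapped.

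**Figure D1:**
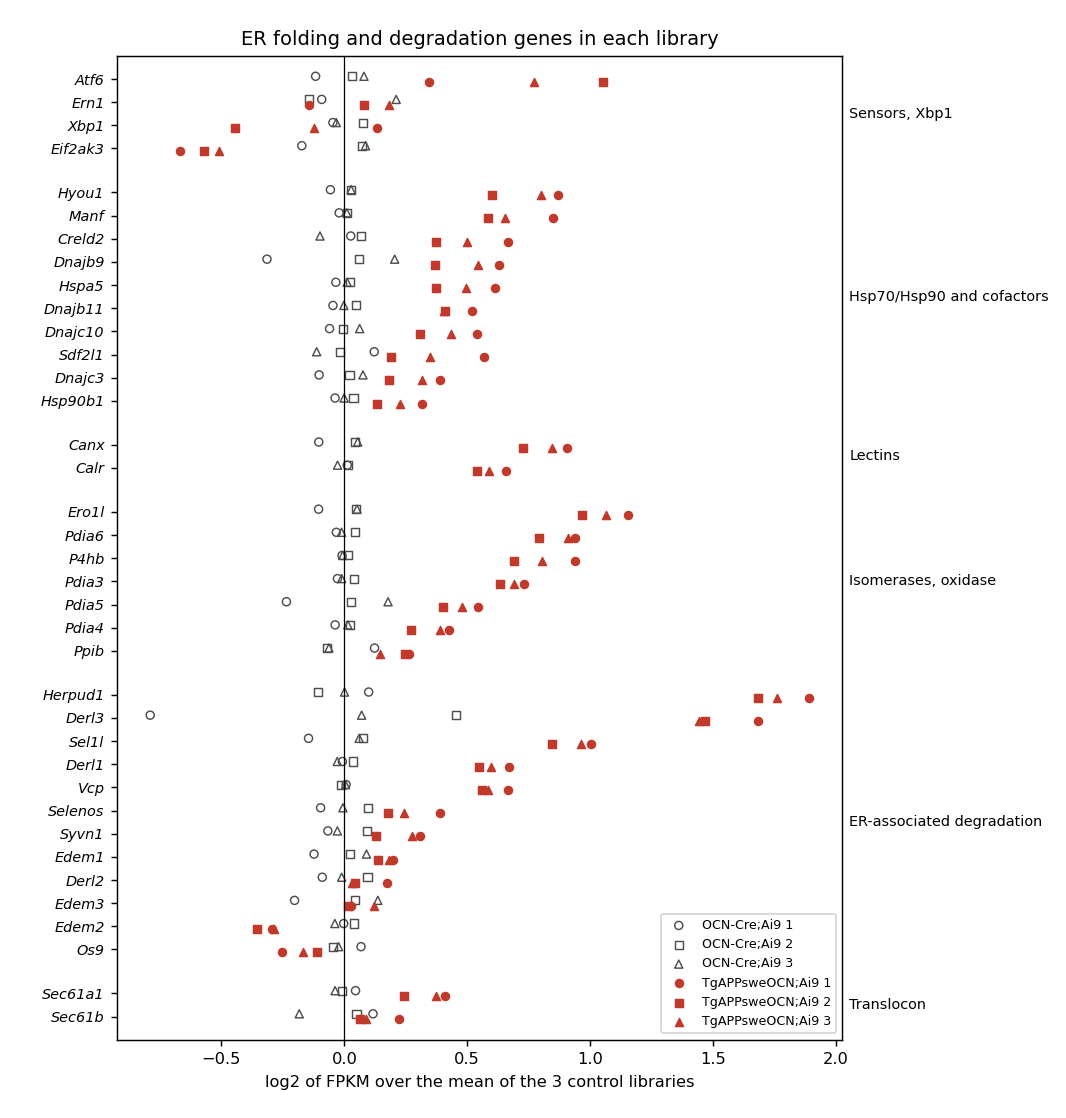
FPKM of each ER gene in each library, as log2 of the value over the mean of the 3 control libraries, with open symbols for control and filled symbols for TgAPPsweOCN;Ai9 libraries and a marker shape for each replicate number. The filled symbols lie right of the open ones for 29 genes, farthest for Herpud1, and left of them for Eif2ak3, Edem2 and Os9.

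Promoter sequence did not enter the choice of the genes, which was by symbol. The ER stress element (ERSE) is the classical motif of chaperone promoters, where the factor NF-Y reads one end and cleaved ATF6 or XBP1 the other. A high share of it in a list of known chaperones is therefore not independent support. RefSeq promoters (GRCm38.p6, 250 bases before to 50 after the start) were at hand for 32 of the 37 genes, but not for Atf6, Derl1, Hyou1, Manf and Sec61a1. Both strands were searched for the ERSE (CCAAT, 9 bases of any kind, then CCACG), for ERSE-II (ATTGG, any base, then CCACG) and for the UPRE (TGACGTGG), and no match of one motif overlapped that of another in these genes. The sequences shown here are those of 6 genes with an ERSE, among them the chief chaperones, and of Herpud1, the gene with the largest change, so that the shared letters can be seen. Each is written 5′ to 3′ on the strand of the gene, with 15 flanking bases in lower case and the whole motif, spacer included, in capitals. A motif that begins with CGTGG is an ERSE on the opposite strand.
Hspa5 (chr2:34772010-34772058, plus strand): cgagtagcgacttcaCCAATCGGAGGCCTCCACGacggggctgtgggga
Hsp90b1 (chr10:86705518-86705671, minus strand): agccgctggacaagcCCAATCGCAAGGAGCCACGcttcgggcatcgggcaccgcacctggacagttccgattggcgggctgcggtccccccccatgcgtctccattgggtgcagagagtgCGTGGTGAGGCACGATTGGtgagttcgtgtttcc
Canx (chr11:50325785-50325833, minus strand): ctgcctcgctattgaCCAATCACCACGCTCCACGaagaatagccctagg
Calr (chr8:84847060-84847108, minus strand): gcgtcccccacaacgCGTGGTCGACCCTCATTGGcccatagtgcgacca
Pdia6 (chr12:17266476-17266524, plus strand): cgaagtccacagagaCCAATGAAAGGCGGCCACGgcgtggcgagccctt
Derl3 (chr10:75893227-75893275, plus strand): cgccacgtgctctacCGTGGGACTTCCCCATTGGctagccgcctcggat
Herpud1 (chr8:94386362-94386402, plus strand): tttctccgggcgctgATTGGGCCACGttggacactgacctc

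The ERSE was present in 9 of the 32 ER genes with a promoter (28.1%) and in 39 of all 32851 promoters (0.119%). The share of ER genes counts genes, while that of all promoters counts promoter entries. The 9 genes were Hspa5, Hsp90b1 with a pair of matches, Canx, Calr, Pdia6, Creld2, Dnajc3, Syvn1 and Derl3. ERSE-II was found in Herpud1, 52 to 42 bases before the start, and in Dnajb11, 7 to 17 bases after it, that is in 6.25% of the ER genes and 0.0365% of all promoters. The UPRE was found in Vcp, or 3.12% of the ER genes, and in 0.676% of all promoters. In all, 12 of 32 ER genes (37.5%) and 0.822% of all promoters held a motif. Among the 10117 tested genes with a promoter the shares were 0.178% for ERSE, 0.089% for ERSE-II, 1.01% for UPRE and 1.27% for any. A match is a run of letters and not a measured binding site, and a promoter without one may hold another form of the element.

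ER genes rose both with and without a motif, and the counts here stand beside 32.5% raised and 31.5% lowered among all genes tested. All 9 ERSE genes rose, with a median log2 fold change of 0.74 and a range from 0.44 to 1.82. Of the 23 ER genes with a promoter but no ERSE, 18 rose and 1 fell, with a median of 0.58. Across all tested genes with a promoter, 18 held an ERSE. The 9 of these that are outside the ER list had 1 raised and 3 lowered gene (11.1% raised) and a median of -0.48. Of 101 such genes with a UPRE 43 rose (42.6%) and 24 fell, of 7 with ERSE-II 2 rose and 3 fell, and of 116 with any of the motifs 46 rose (39.7%) and 29 fell.

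**Figure D2:**
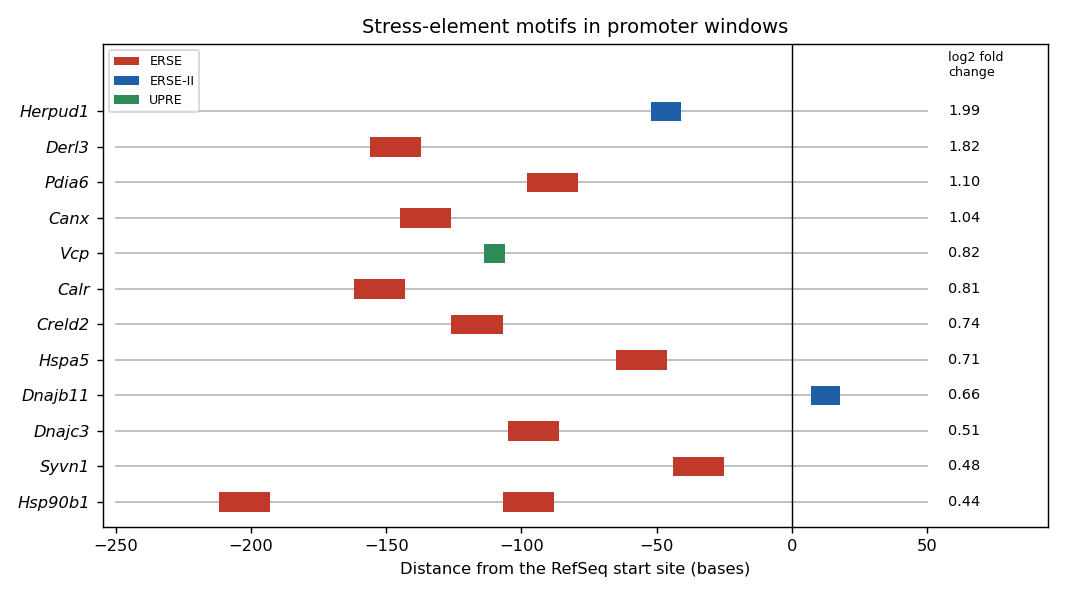
Positions of the motifs in the promoter windows of the 12 ER genes with a match, in bases from the RefSeq start site, with the log2 fold change of the gene at the right and genes ordered by it. ERSE matches lie before the start in all 9 genes, and Herpud1, at the top, carries ERSE-II at 52 to 42 bases before the start.

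The stress sensors and Xbp1 come first. Atf6, on chromosome 1 (GRCm38.p6, 170704457 to 170868585), encodes the sensor that is cut in the Golgi to release a transcription factor, and had an FPKM of 16.6, 18.4 and 19.1 in the control and 22.9, 37.4 and 30.8 in the APPswe+ libraries. The lowest APPswe+ library was above the highest control library, and APPswe+ replicate 2 was far above replicate 1. Its log2 fold change was 0.96 ± 0.15 (SE), adjusted p = 0.000477, and it stayed between 0.80 and 1.12 when any library was left out. Eif2ak3 encodes PERK, the kinase that lowers protein synthesis under stress, and had an FPKM of 7.52, 8.91 and 9.0 in the control and 5.33, 5.7 and 5.96 in the APPswe+ libraries. The groups did not overlap, and the log2 fold change was -0.36 ± 0.081 (SE), adjusted p = 0.00421.

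Ern1, which encodes the kinase and ribonuclease IRE1, had an FPKM of 7.75, 7.47 and 9.56 in the control and 7.48, 8.74 and 9.36 in the APPswe+ libraries, and the groups overlapped. The test gave a log2 fold change of 0.26 ± 0.11 (SE), adjusted p = 0.0675, and Ern1 passed with a replicate block (adjusted p = 0.024), without control replicate 3 (0.0181) or without APPswe+ replicate 1 (0.0285). Xbp1, the transcription factor whose mRNA IRE1 splices, had an FPKM of 61, 66.4 and 61.6 in the control and 69.1, 46.2 and 57.8 in the APPswe+ libraries, and the APPswe+ libraries lay on both sides of the control ones. Its log2 fold change was 0.091 ± 0.14 (SE), adjusted p = 0.588. Scaled by library size alone, the change was -0.13. Gene counts do not separate spliced from unspliced Xbp1 mRNA, nor do they show cleavage of ATF6. Of these 4 genes, 1 rose, 1 fell and 2 did not pass the test, with a median log2 fold change of 0.18, and shares of 32.5% raised and 31.5% lowered among all genes stand beside these counts.

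All 10 genes of the Hsp70 and Hsp90 chaperones and their cofactors rose, beside 32.5% of all genes tested. Their log2 fold changes ran from 0.44 to 0.98, with a median of 0.69 and adjusted p from 1.51e-05 (Hyou1) to 0.00164 (Sdf2l1). Hspa5, on chromosome 2 (GRCm38.p6, 34772090 to 34776529), encodes BiP (GRP78), the Hsp70 chaperone of the ER lumen, and had an FPKM of 259, 269.7 and 268 in the control and 406, 344 and 374 in the APPswe+ libraries. The mean was 266 ± 5.52 in the control and 375 ± 31.2 in the APPswe+ libraries (SD, n = 3), and the groups did not overlap. This was a log2 fold change of 0.71 ± 0.078 (SE), adjusted p = 6.75e-05. An exact two-sided permutation test of the FPKM of Hspa5, like those of Atf6 and Herpud1, gave p = 0.1, the smallest value that 3 against 3 libraries allow.

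Hyou1, an Hsp70-like protein that lets BiP exchange its nucleotide, had the largest change of the group, with an FPKM of 33, 35 and 35 in the control and 62.7, 52.1 and 59.8 in the APPswe+ libraries. The log2 fold change of Hyou1 was 0.98 ± 0.083 (SE), adjusted p = 1.51e-05. Manf, a secreted protein that binds BiP, had an FPKM of 45.1, 46.1 and 46.1 in the control and 82.4, 68.6 and 71.9 in the APPswe+ libraries. In both genes the lowest APPswe+ library was well above the highest control library, and replicate 2 was the lowest of the 3. Manf rose by 0.92 on the log2 scale.

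The J-domain proteins hand clients to BiP and start its ATPase. Dnajb9, which also holds IRE1 inactive, had an FPKM of 19.5, 25.2 and 27.9 in the control and 37.4, 31.2 and 35.3 in the APPswe+ libraries. Dnajb11, a J-domain protein for newly made secretory proteins, had an FPKM of 52.9, 56.5 and 54.6 in the control and 78.3, 72.5 and 72.3 in the APPswe+ libraries. Dnajc3 had an FPKM of 20.1, 21.9 and 22.8 in the control and 28.3, 24.5 and 26.9 in the APPswe+ libraries. The groups of all 3 genes were separate, by the smallest margin in Dnajc3. Dnajc10, a J-domain protein that also reduces disulfide bonds, had an FPKM of 16.7, 17.4 and 18.2 in the control and 25.4, 21.6 and 23.6 in the APPswe+ libraries, and again no value overlapped. The log2 fold changes were 0.74 for Dnajb9, 0.66 for Dnajb11, 0.51 for Dnajc3 and 0.65 for Dnajc10.

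Sdf2l1, a partner of Dnajb11, had an FPKM of 56.7, 51.4 and 48.2 in the control and 77.2, 59.5 and 66.2 in the APPswe+ libraries. Creld2, a stress-induced ER protein, had an FPKM of 23.7, 24.4 and 21.7 in the control and 37, 30.2 and 32.9 in the APPswe+ libraries. Both rose without overlap, although the lowest Sdf2l1 value of APPswe+ cells came close to the highest control value. Their log2 fold changes were 0.59 for Sdf2l1 and 0.74 for Creld2. Hsp90b1 encodes GRP94, the Hsp90 of the ER, and was the most abundant of the group after Hspa5 per length in FPKM. Its mean FPKM was 253 ± 6.6 in the control and 297 ± 19.1 in the APPswe+ libraries (SD, n = 3), and its log2 fold change was the smallest of the 10, 0.44 ± 0.07 (SE), adjusted p = 0.000616.

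Both lectin chaperones, which bind trimmed glycans on new glycoproteins, rose, beside 32.5% of all genes tested. Calr, which encodes calreticulin, was the most abundant of the 37 genes per length, with an FPKM of 548, 549 and 533 in the control and 857, 790.4 and 817 in the APPswe+ libraries. The rise of Calr on the log2 scale was 0.81 ± 0.062 (SE), adjusted p = 8.70e-06. Canx, which encodes the membrane-bound calnexin, had an FPKM of 89.5, 99.2 and 99.9 in the control and 180.1, 159 and 173 in the APPswe+ libraries, and its log2 fold change was 1.04 ± 0.076 (SE), adjusted p = 6.22e-06. No APPswe+ library overlapped a control library in either gene.

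**Figure D3:**
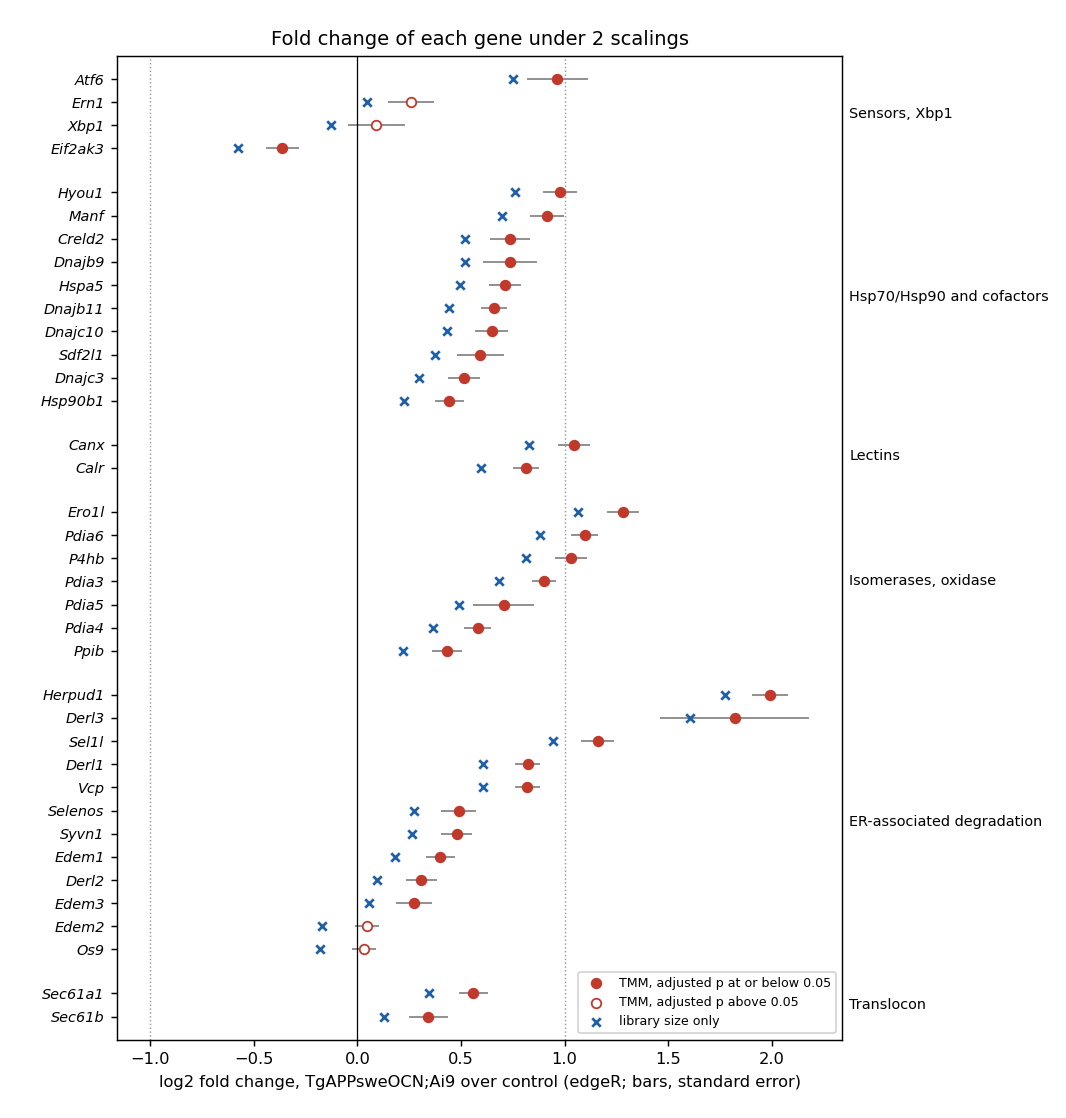
Log2 fold change of each ER gene, TgAPPsweOCN;Ai9 over control, from edgeR, with standard error as bars, filled circles where the adjusted p was at or below 0.05 and blue crosses for scaling by library size only. The dotted lines mark a 2-fold change, and the crosses lie left of the circles, below 0 for Edem2, Os9, Xbp1 and Eif2ak3.

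The 7 disulfide isomerases, oxidase and prolyl isomerase all rose, beside 32.5% of all genes tested. Their log2 fold changes ran from 0.43 to 1.28, with a median of 0.90. Ero1l, the oxidase that passes electrons from protein disulfide isomerase to oxygen, had an FPKM of 10.7, 11.9 and 11.9 in the control and 25.5, 22.5 and 24 in the APPswe+ libraries. Its mean FPKM was 11.5 ± 0.696 in the control and 24 ± 1.53 in the APPswe+ libraries (SD, n = 3), and the log2 fold change of 1.28 ± 0.078 (SE), adjusted p = 2.35e-06 was the largest of the group. Ero1l rose at least 2-fold in every alternative fit, as did Herpud1 and no other ER gene.

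P4hb, protein disulfide isomerase and also a subunit of collagen prolyl 4-hydroxylase, had an FPKM of 190.3, 194 and 191 in the control and 367, 309 and 334 in the APPswe+ libraries. Pdia6 had an FPKM of 83.3, 87.8 and 84.6 in the control and 163, 148 and 159.9 in the APPswe+ libraries. Pdia3, the isomerase that works with calreticulin and calnexin, had an FPKM of 221, 231 and 224 in the control and 374, 349 and 364 in the APPswe+ libraries. All 3 genes were separate between the genotypes, with log2 fold changes of 1.03 for P4hb (adjusted p = 8.54e-06), 1.10 for Pdia6 (adjusted p = 2.12e-06) and 0.90 for Pdia3 (adjusted p = 3.84e-06).

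Pdia4 had an FPKM of 57, 59.4 and 59 in the control and 78.6, 70.5 and 76.5 in the APPswe+ libraries, and its log2 fold change was 0.58 ± 0.065 (SE), adjusted p = 7.83e-05. Pdia5 was the least abundant isomerase per length, with an FPKM of 2.2, 2.64 and 2.93 in the control and 3.78, 3.42 and 3.61 in the APPswe+ libraries, and its log2 fold change was 0.71 ± 0.15 (SE), adjusted p = 0.00284. In both the groups were separate, and the margin was narrow in Pdia5. Ppib, the ER cyclophilin that helps collagen fold, had the smallest rise of the 7, with a mean FPKM of 160.0 ± 12.3 in the control and 186 ± 8.26 in the APPswe+ libraries (SD, n = 3) and a log2 fold change of 0.43 ± 0.073 (SE), adjusted p = 0.00083.

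Of the 12 ERAD genes, 10 rose, 0 fell and 2 did not pass, beside 32.5% raised among all genes, with log2 fold changes from 0.03 to 1.99. Herpud1, which encodes a membrane protein that organizes the ubiquitin ligase complex of ERAD, is on chromosome 8 (GRCm38.p6, 94386429 to 94395371). It had an FPKM of 31.2, 27 and 29.1 in the control and 108, 93.5 and 98.6 in the APPswe+ libraries. The mean was 29.1 ± 2.08 in the control and 99.98 ± 7.31 in the APPswe+ libraries (SD, n = 3), and the groups were far apart. The log2 fold change of 1.99 ± 0.087 (SE), adjusted p = 4.04e-07 was the largest of the 37 and equals a 3.98-fold rise.

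Sel1l, the adaptor that holds clients near the ligase, had an FPKM of 33.4, 38.9 and 38.5 in the control and 74, 66.4 and 72 in the APPswe+ libraries. On the log2 scale Sel1l rose by 1.16 ± 0.08 (SE), adjusted p = 4.90e-06. The ligase itself, Syvn1 (HRD1), rose less, with a mean FPKM of 34.8 ± 2.0 in the control and 41.1 ± 2.68 in the APPswe+ libraries (SD, n = 3) and a log2 fold change of 0.48 ± 0.074 (SE), adjusted p = 0.000519. The groups of both genes were separate.

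Derlins are membrane proteins thought to form part of the path back to the cytosol. Derl1 had an FPKM of 42.8, 44.1 and 42.2 in the control and 68.5, 62.9 and 65 in the APPswe+ libraries, and its log2 fold change was 0.82 ± 0.062 (SE), adjusted p = 7.49e-06. Derl2 rose by 0.31 on the log2 scale with an adjusted p of 0.00588, its FPKM groups overlapped, and the call was lost by library size only (0.093, adjusted p = 0.257). Derl3 was near the detection limit, with estimated counts of 5, 16 and 12 in the control and 42, 37 and 34 in the APPswe+ libraries. Its log2 fold change was 1.82 ± 0.36 (SE), adjusted p = 0.0021, a value that counting error makes uncertain, and it dropped out when 10 counts were required of each library.

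Vcp, the ATPase that pulls clients out of the membrane, had an FPKM of 135, 134 and 135 in the control and 214, 198 and 202 in the APPswe+ libraries, with a log2 fold change of 0.82 ± 0.06 (SE), adjusted p = 6.38e-06. Selenos, which recruits that ATPase, rose less, with a mean FPKM of 44.5 ± 2.96 in the control and 53.7 ± 4.05 in the APPswe+ libraries (SD, n = 3) and a log2 fold change of 0.49 ± 0.083 (SE), adjusted p = 0.000919. The groups of both genes were separate.

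The Edem genes and Os9 read or trim glycans on misfolded proteins. Edem1 rose by 0.40 on the log2 scale with an adjusted p of 0.000994, and Edem3 by 0.27 with an adjusted p of 0.0235, a call lost by library size only (0.055, adjusted p = 0.598). Edem2 had an FPKM of 38.5, 39.7 and 37.6 in the control and 31.4, 30.1 and 31.7 in the APPswe+ libraries, so every APPswe+ library was lower in FPKM, while its log2 fold change on TMM counts was 0.045 ± 0.058 (SE), adjusted p = 0.523. The length that enters FPKM also differed. The transcript length implied by counts over FPKM was 1.80 kb in the control and 1.99 kb in the APPswe+ libraries for Edem2, a rise of 10.3% with the groups apart. Os9, a lectin that reads trimmed glycans, had a log2 fold change of 0.032 ± 0.058 (SE), adjusted p = 0.645, and its mean FPKM was 75.5 ± 3.21 in the control and 66.8 ± 3.3 in the APPswe+ libraries (SD, n = 3). With scaling by library size only, Edem2 and Os9 were lower by the test, at -0.17 and -0.18.

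**Figure D4:**
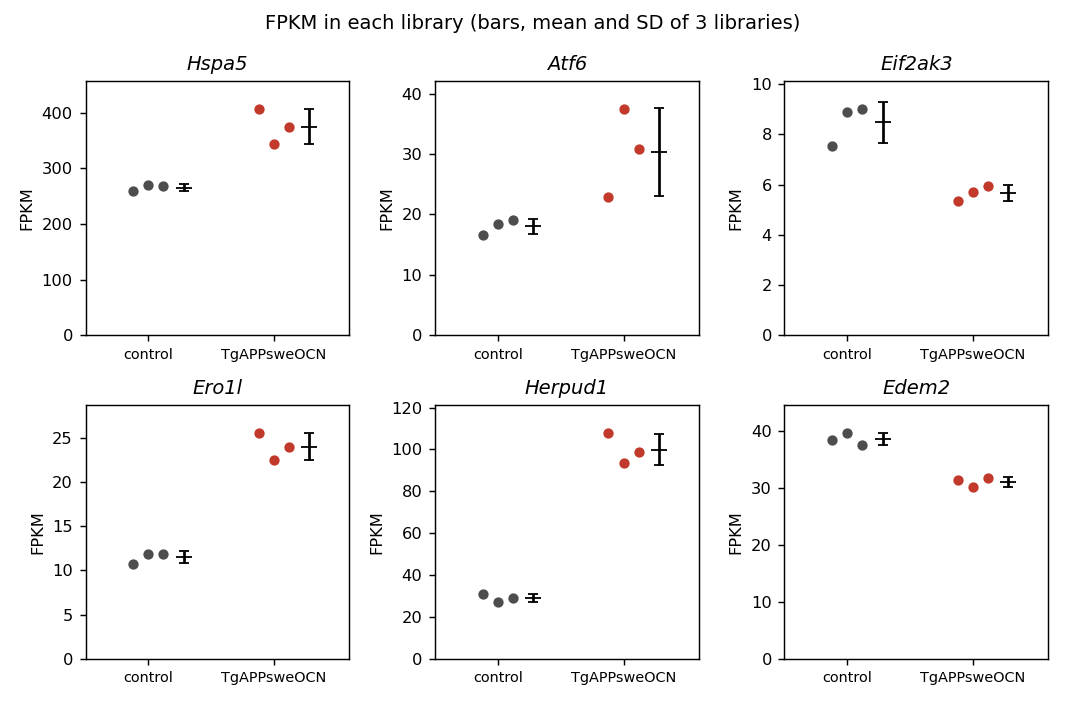
FPKM of 6 ER genes in each library, with the mean and SD of the 3 libraries of a genotype beside the points and each axis starting at 0. Herpud1, Hspa5, Ero1l and Atf6 are higher in every TgAPPsweOCN;Ai9 library than in every control library, while Eif2ak3 and Edem2 are lower.

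Among the 35 ER genes with FPKM over 5 in every library, the implied length changed by over 5% in 1, Edem2. Among all 7320 genes past the same limit, 421 (5.75%) changed by as much.

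Both genes of the translocon, the channel that new proteins pass through, rose, beside 32.5% of all genes tested. Sec61a1, the channel subunit, had an FPKM of 53.6, 51.6 and 50.6 in the control and 69.1, 61.5 and 67.2 in the APPswe+ libraries, with a log2 fold change of 0.56 ± 0.068 (SE), adjusted p = 0.00013. Sec61b, a small subunit, rose by 0.34 on the log2 scale with an adjusted p of 0.0112, and its FPKM groups overlapped. Its call was lost by library size only (0.13, adjusted p = 0.227).

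Overlap with other genes was checked over whole gene spans, introns included. Hspa5, Pdia3, Pdia6, Ppib, Syvn1 and Derl2 overlap a neighbouring gene in RefSeq, namely Rabepk, Catsper2, Atp6v1c2, Snx22, Mrpl49 and Mis12. In addition, Atf6, Eif2ak3, Dnajb11, Dnajc3, Edem1 and Os9 overlap predicted (Gm) genes and Pdia4 overlaps Mir704. Whether counting used strand is not given in the sources used here. Ppib and Derl2 had fractional counts in all 6 libraries, a sign of reads shared between genes. The other overlapping genes named here had whole counts in every library.

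The 3 APPswe+ libraries differed in a regular way. APPswe+ replicate 1 was the highest of the 3 in FPKM for 31 of the 37 ER genes (83.8%), against 33% of all genes tested. Replicate 2 was the lowest for 29 ER genes, against 30.6% of all genes. Atf6 ran the other way, with replicate 2 highest. Summed FPKM of the 15 stromal markers was 172 in replicate 1, 252 in replicate 2 and 215 in replicate 3 (265, 220 and 242 in the control libraries). The sum of the 15 myeloid markers ran in the order of most ER genes, at 20100, 16350 and 17560 (19560 to 20310 in the control libraries), as did that of the B and plasma cell markers, at 20.4, 15.6 and 17.9 (13.9 to 14.3). Of the 8 B and plasma cell markers, 6 stayed below 1 FPKM in every library, so their sum rests on few genes. The sum of the neutrophil markers ran the opposite way, at 18.1, 49.4 and 33.9 (12.3 to 51.5). The part of these sums in the order of the ER genes was not tested. Without replicate 1, 33 ER genes rose, 6 of them at least 2-fold, and Hspa5 was higher by 0.64 and Herpud1 by 1.92 on the log2 scale.

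Other genes of the pathway were taken from lists of neighbouring steps. Their counts stand beside 32.5% raised and 31.5% lowered among all genes. Of 23 genes of translocation, signal peptidase and signal recognition, 16 rose and 0 fell, with a median log2 fold change of 0.39. The largest changes were in Spcs3 (1.08), a signal peptidase subunit, Sec61g (0.98) and Ssr3 (0.96). Of 15 genes that attach and trim glycans, 13 rose and 1 fell, with a median of 0.42, and Stt3b (1.02), a catalytic subunit of the glycan transferase, led with Magt1 (0.73) and Rpn1 (0.70).

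Further chaperones and ERAD genes moved in both directions. Of 34 other chaperones and folding enzymes, 14 rose and 7 fell, with a median of 0.035. The largest changes were in Ppic (2.12), a prolyl isomerase, Tmx1 (0.76) and Calu (0.76). The largest fall was in Serpinh1 (-0.68, adjusted p = 0.000378 in the edgeR test). Of 25 other ERAD genes, 15 rose and 3 fell, with a median of 0.22 (5 fell without APPswe+ replicate 1), and Nploc4 (0.89), a cofactor of Vcp, changed most, followed by Faf2 (0.77) and Ubqln1 (0.70). By library size only, where 22.1% of all genes rose and 45.9% fell, the raised and lowered counts were 11 and 4 for translocation, 9 and 1 for glycans, 11 and 15 for chaperones and 10 and 9 for ERAD.

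**Figure D5:**
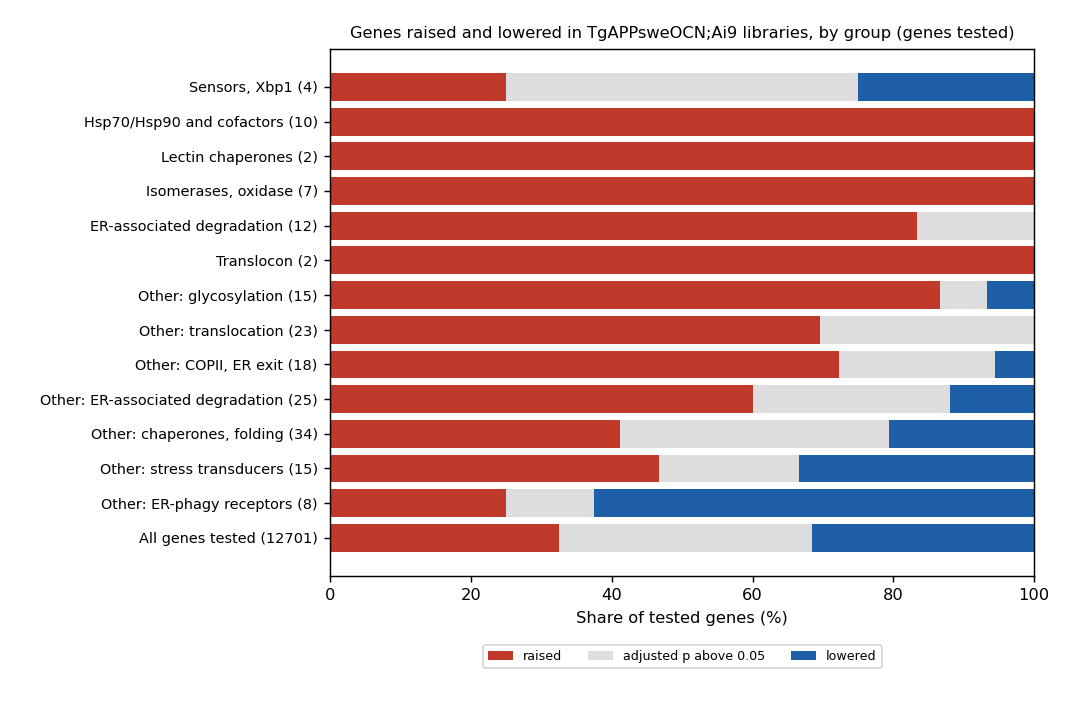
Share of tested genes that rose (red), fell (blue) or did not pass the test (grey) in each class of ER genes, in the other lists of the pathway and among all genes tested, with the number tested in brackets. Every gene rose in the Hsp70 and Hsp90, lectin, isomerase and translocon classes, while 32.5% of all genes did.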

How the data were processed

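RNA-seq was measured in 3 OCN-Cre;Ai9 and 3 TgAPPsweOCN;Ai9 libraries, grouped by the genotype in the labels. Reads from rRNA, adaptors and low-quality bases were discarded by the authors before mapping. The authors deposited estimated counts, fractional for 13.3% to 14.4% of genes in a library, and FPKM rounded to 2 decimals. The submitters' processing notes name HISAT2 2.0.4, Bowtie2 2.2.5, RSEM 1.2.12, DESeq2 1.4.5 and build mm10. A second deposited table repeats the FPKM beside the authors' own fold changes and p-values and was not used here.

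The test was planned on raw counts, so estimated counts were rounded to whole numbers. They were compared over all genes passing filterByExpr with edgeR 4.0.16 in R 4.3.3 (TMM, quasi-likelihood test, genotype as the sole term), with Benjamini-Hochberg adjustment over all 12701 genes. The biological coefficient of variation was 9.85%. A floor of 3 counts equals 0.136 to 0.155 CPM, which covers counting error only. The labels do not state that replicate numbers pair the libraries.

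The ER genes and the other lists were chosen with earlier results of these data known. Values in every library are given for ER genes with an adjusted p at or below 0.05 and an absolute log2 fold change of at least 0.5, for the sensors with Xbp1, for Hspa5 and for genes under 10 counts in some library. From each other list the 3 largest changes among genes past the test with at least 10 counts in every library were named. Serpinh1 was named in addition, as the largest fall of its list. Marker genes, which only check the label, were named after their values were known.

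The alternatives used RLE size factors or library size alone in place of TMM, DESeq2 1.42.0 in place of edgeR, a minimum of 1 count in any library or 10 counts in each, a replicate block, limma 3.58.1 on log2(FPKM + 1) with and without a filter and on log2(FPKM + 0.1), and leaving out each library. The fit was tested on simulated data. Promoters were RefSeq sequences of GRCm38.p6, and Ero1l was matched by gene ID. Protein sequences were not analysed here. Tables and plots were made in Python 3.11.15 with pandas 2.3.3, scipy 1.17.1 and matplotlib 3.10.9.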

Additional observations from a re-analysis of the deposited data

How the results depend on the processing

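Over 15 alternatives, 28 of the 37 ER genes rose in every fit that tested them, and 2, Ero1l and Herpud1, rose at least 2-fold in each. DESeq2 and RLE size factors gave 32 raised, 1 lowered and 7 raised at least 2-fold, as did the absence of a filter, and a minimum of 10 counts in every library left 36 genes tested, with 31 raised and 6 raised at least 2-fold. The number lowered was 3 with library size only, with limma on log2(FPKM + 1), on log2(FPKM + 0.1) and on log2(FPKM + 1) without a filter. The number raised at least 2-fold was 3, 2, 3 and 2 in the same fits, and the number raised 29, 29, 29 and 28. In these fits, in the same order, Xbp1 turned to -0.13, -0.14, -0.14 and -0.14, Edem2 to -0.17, -0.30, -0.31 and -0.30, and Os9 to -0.18, -0.17, -0.18 and -0.17. Edem3, Derl2 and Sec61b lost their call in all 4 of these fits and Edem1 in the last (adjusted p = 0.0528).

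Leaving out each library in turn gave 31 to 33 raised, 1 lowered and 6 to 8 raised at least 2-fold, and 0 lowered at least 2-fold. Xbp1 ranged from -0.075 without TgAPPsweOCN;Ai9 replicate 1 to 0.24 without TgAPPsweOCN;Ai9 replicate 2. Ern1 passed the test without control replicate 3 (adjusted p = 0.0181, edgeR) and without TgAPPsweOCN;Ai9 replicate 1 (0.0285), and Edem3 did not without TgAPPsweOCN;Ai9 replicate 3 (0.0841). With the replicate block, 33 rose, 1 fell and 7 rose at least 2-fold, and Ern1 passed (adjusted p = 0.024). Same-numbered libraries correlated in their deviations at 0.013, 0.0076 and 0.14, and differently numbered libraries of both genotypes at -0.052 to 0.024. Values from 3 libraries of a genotype cannot settle whether the numbers pair them. Depth limits Derl3 most, which had 5 counts in a control library.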

Other observations

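The counts of the 3 lists described here stand beside 32.5% raised and 31.5% lowered among all genes, or 22.1% and 45.9% by library size only. The first list concerns transport out of the ER. Of 18 genes of the COPII coat and ER exit, 13 rose and 1 fell, with a median log2 fold change of 0.32 (7 rose and 3 fell by library size only, with a median of 0.11, and 2 fell without control replicate 1 or APPswe+ replicate 1). Sec24d, a coat subunit that selects cargo and is needed for collagen export, had an FPKM of 18.3, 20.5 and 21.2 in the control and 36.5, 36.2 and 38.5 in the APPswe+ libraries, and every APPswe+ library was higher. Lman1, a lectin that carries glycoproteins to the Golgi, had a log2 fold change of 0.81 ± 0.064 (SE), adjusted p = 9.68e-06. The exception was Kdelr3, a receptor that returns ER proteins from the Golgi, with an FPKM of 4.09, 3.49 and 4.34 in the control and 2.06, 1.9 and 1.78 in the APPswe+ libraries and a log2 fold change of -0.84 ± 0.16 (SE), adjusted p = 0.00188.

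ER-phagy receptors bring pieces of ER to the autophagy machinery. Of 8 tested, 2 rose and 5 fell, with a median of -0.27 (1 rose and 6 fell by library size only, and 1 rose in 5 of the 6 fits that leave out a library, control replicate 3 being the exception). Calcoco1 had an FPKM of 27.1, 23.9 and 25.2 in the control and 11, 11.9 and 11.6 in the APPswe+ libraries, and Ccpg1 had an FPKM of 28.1, 29.6 and 29.1 in the control and 12.3, 15.7 and 15.2 in the APPswe+ libraries, with log2 fold changes of -0.93 and -0.75. Rtn3, a receptor of tubular ER, rose, with an FPKM of 109, 120.0 and 116 in the control and 175, 162 and 169 in the APPswe+ libraries.

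Of 15 genes that carry or end the stress signal, 7 rose and 5 fell, with a median of 0.17 (5 rose and 5 fell by library size only, with a median of -0.048, and 3 fell without APPswe+ replicate 2 or replicate 3). Map3k5, a stress kinase downstream of IRE1, had an FPKM of 10.1, 10.4 and 11.1 in the control and 2.87, 2.65 and 3.16 in the APPswe+ libraries, and its log2 fold change was -1.65 ± 0.079 (SE), adjusted p = 6.78e-07. Traf2, the adaptor between IRE1 and that kinase, had an FPKM of 9.61, 7.86 and 9.11 in the control and 13.6, 13.9 and 13.7 in the APPswe+ libraries, and was higher in every APPswe+ library. Eif2s1, which encodes the translation factor that PERK phosphorylates, had an FPKM of 24.5, 25.8 and 25.2 in the control and 52.1, 51.2 and 47 in the APPswe+ libraries and a log2 fold change of 1.21 ± 0.063 (SE), adjusted p = 1.04e-06.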
